A study of Mus musculus with 12 samples.

Results

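Spermatids of the PWD/Ph (PWD) and C57BL/6J (B6) inbred strains were compared on 4 of the 12 Affymetrix mouse whole-genome expression arrays of the series, which were all its arrays of the population labelled spermatids. There were 2 arrays of PWD spermatids and 2 arrays of B6 spermatids. The other 8 arrays held pachytene and prepachytene spermatocytes of the same strains, again 2 arrays per strain and population, and were used to estimate the spread and to ask whether a strain difference was also seen in those populations. Both strains are inbred mice without introduced alleles: PWD represents the *Mus musculus musculus* subspecies and B6 is predominantly *Mus musculus domesticus*. The males were 8 to 10 weeks old, their testicular cells were sorted by fluorescence, and 15 to 40 ng of RNA per sample entered the labelling. The study states duplicates from 2 animals but does not tie an array to an animal, so that the p-values measure the spread between these arrays. The deposited values are log2 GCRMA values of 45037 probesets besides controls, and each difference below is the PWD minus the B6 log2 mean, so that 1 is a 2-fold difference.

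Spermatids are the haploid cells that form after meiosis. In round spermatids the acrosome is built and transcription is still active, and many messages are stored for later translation. In elongating spermatids histones are replaced by transition proteins and then by protamines, the chromatin condenses, transcription ends, and the flagellum with its fibrous sheath and mitochondrial sheath is assembled.

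The arrays carried transcripts that this cell type is known for, but such transcripts were not confined to it. The protamine gene *Prm2* averaged 11.89 in PWD and 12.71 in B6 spermatids, and 13.36 and 11.64 in prepachytene cells. The transition protein genes averaged 10.93 and 12.14 (*Tnp2*) and 12.72 and 13.62 (*Tnp1*) in PWD and B6 spermatids. In prepachytene cells they averaged 12.46 and 10.72, and 11.48 and 10.34. *Prm1*, which encodes protamine 1, read 15.34 and 15.89 in PWD spermatids, against 15.81 and 15.94 in B6 spermatids. The 17 measured markers of elongating spermatids averaged 12.81 and 13.27 on the PWD arrays and 13.69 and 13.66 on the B6 arrays, and the 15 markers of round spermatids averaged 11.73 and 12.18 on the PWD arrays and 12.19 and 12.25 on the B6 arrays. Replicate arrays correlated across probesets at r = 0.994 in PWD spermatids and r = 0.995 in B6 spermatids, and the median within-strain SD of probesets above background was 0.208 in PWD and 0.105 in B6. A background level of 4.47 was taken from 76 probesets of 43 genes of other organs. Because a value below that level carries little signal, the size of a difference is set partly by the floor wherever 1 strain lies below it. In bulk samples such as these, fewer cells of a type and less RNA per cell cannot be told apart.

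Of the 45037 probesets, 5352 (11.9%) passed the limma test of PWD against B6 in spermatids at a threshold of 0.05 on the Benjamini-Hochberg adjusted p, 2865 of them higher in PWD (6.36%) and 2487 lower (5.52%). These probesets are referred to as called. The balance between the directions depended on the processing, with 2769 higher and 2969 lower after centring of the arrays on probesets above background, and 1516 higher and 1736 lower when the fit held just the 4 spermatid arrays. With each of 18193 genes represented by its brightest probeset, 3112 genes (17.1%) were called, 1740 higher in PWD (9.56%) and 1372 lower (7.54%). Among the 9965 genes above background over the 12 arrays, 2418 (24.3%) were called, 1471 higher (14.8%) and 947 lower (9.5%), with a median difference of 0.08 and quartiles of -0.35 and 0.55. An 8-fold difference or more was seen for 224 genes called higher in PWD and 290 called lower. In 497 genes called higher the B6 mean was below background, and in 543 genes called lower the PWD mean was below background. The scatter of mean values shows these genes along the 2 edges of the plot. The strains' arrays did not overlap for any of the called probesets, and they did not overlap for 71.7% of all probesets, which is the background for such a count with 2 arrays per side.

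**Figure D1:**
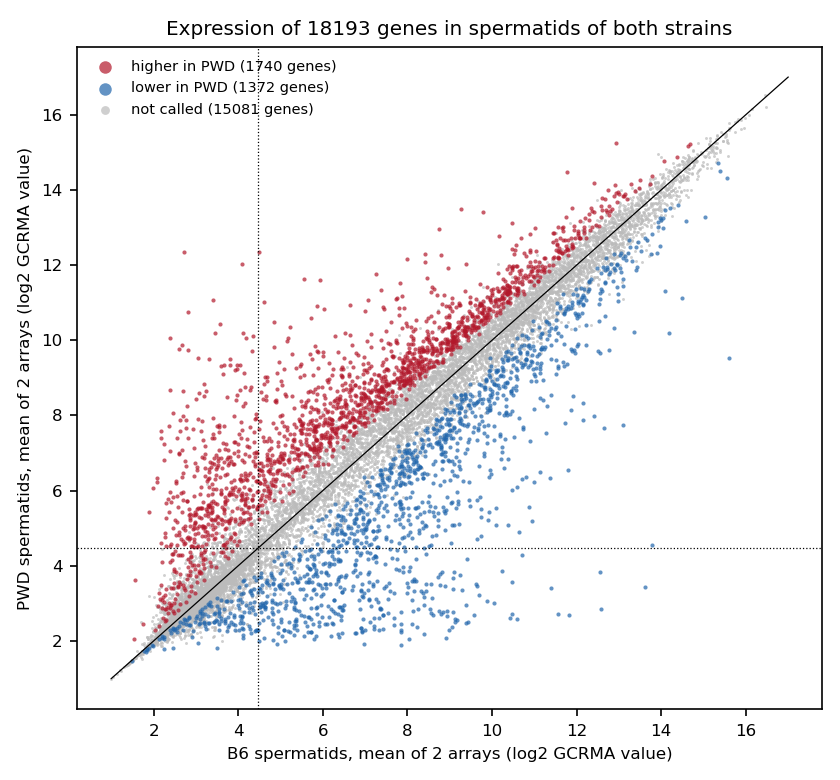
Mean log2 GCRMA value of each gene in PWD spermatids (vertical axis) against B6 spermatids (horizontal axis), 2 arrays each, by the brightest probeset of the gene. Red points mark the 1740 genes called higher in PWD and blue points the 1372 called lower. The dotted lines mark the background level of 4.47.

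By the probeset that gave them, the largest differences were of an all-or-none kind. That probeset had signal in 1 strain and a value near or below background in the other, which did not hold for all probesets of these genes. The 12 genes at each end were chosen by a fixed rule. *Scarb2* (chr5:92441311-92505657, GRCm38), which encodes a receptor of the lysosomal membrane, read 12.16 and 12.53 in PWD spermatids, against 2.71 and 2.74 in B6 spermatids. The difference was 9.62 ± 0.26 (SE, limma adjusted p = 3.0e-07), and its second probeset was called in the same direction with a difference of 1.58. *Hebp2* (chr10:18540123-18546076), a haem-binding protein gene, read 10.97 and 10.91 in PWD against 2.45 and 2.45 in B6, a difference of 8.49 ± 0.49 (limma adjusted p = 2.0e-05). A probeset of *Hebp2* that was brighter over the 12 arrays differed by 3.87 and read 5.47 and 5.44 in B6, above background. *Man2a2* (chr7:80349095-80371483), which encodes an alpha-mannosidase of the Golgi, read 10.55 and 10.96 in PWD and 2.78 and 2.87 in B6. *Slc28a3*, which encodes a nucleoside transporter, read 12.13 and 12.58 in PWD and 4.63 and 4.34 in B6, but the remaining probesets of *Man2a2* and *Slc28a3* were below background in both strains. *Bdh1*, which encodes a mitochondrial enzyme of ketone body metabolism, read 10.03 and 10.36 in PWD and 2.65 and 2.76 in B6, and both of its probesets were called higher. The brighter probeset of *Bdh1* over the 12 arrays read 6.05 and 6.53 in B6, above background, and differed by 3.83. The plot of single arrays shows the gap between the strains for all 24 genes.

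The others at the upper end were *Vgll2*, a transcription cofactor gene (difference 7.94), *Tpm4*, which encodes a tropomyosin (7.67), *Ccndbp1*, a gene for a cyclin D-binding protein (7.67), *F13b*, which encodes a subunit of coagulation factor XIII (7.20), *Fastkd1*, a gene for a mitochondrial protein (7.16), and *Ecrg4* (6.92). All 3 probesets of *Ecrg4* were called higher in PWD. *Pdxdc1* had the largest value, with 12.19 and 12.45 in PWD against 1.99 and 2.00 in B6 and a difference of 10.33. This number held for 1 probeset of that gene, since the other 3 were different by -2.79, -1.77 and -1.08, the first and second of them called. The direction of *Pdxdc1* was therefore not settled by the array.

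Many of the genes at the lower end have no described function and carry clone names. *1700029F12Rik* (chr13:97021864-97035254) read 3.46 and 3.42 in PWD spermatids, against 13.62 and 13.61 in B6 spermatids, a difference of -10.18 ± 0.28 (SE, limma adjusted p = 3.0e-07). *Galntl6* (chr8:57772489-58912531), of the family of enzymes that start mucin-type O-glycans, read 3.19 and 2.52 in PWD and 12.64 and 12.53 in B6. *Ttc30a2* (chr2:75976172-75978179), a gene of the intraflagellar transport machinery that builds cilia and flagella, read 4.66 and 4.47 in PWD and 13.87 and 13.71 in B6, and its second probeset differed by -9.00. *Grtp1* (chr8:13176869-13200766), which encodes a protein with a TBC domain, read 3.27 and 2.72 in PWD against 11.60 and 11.55 in B6. The brighter probeset of *Grtp1* over the 12 arrays differed by -4.48 and read 5.86 and 6.35 in PWD, above background. *Lyrm7*, which encodes an assembly factor of respiratory complex III, read 2.35 and 2.85 in PWD and 10.50 and 10.34 in B6. The remaining members were *1700006J14Rik* (-9.11), *4921534H16Rik* (-8.85), *4933432K03Rik* (-8.72), *4930453L07Rik* (-7.98), *1700017G19Rik* (-7.98) and *4933401H06Rik* (-7.75).

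*Rpn1* (chr6:88084473-88105304), which encodes a subunit of the oligosaccharyltransferase complex, had the lowest value of all and is the counterpart of *Pdxdc1*. Its lowest probeset read 2.24 and 2.30 in PWD against 13.07 and 12.94 in B6, and a pair of further probesets behaved alike. The brightest probeset of the gene read 11.26 and 11.19 in PWD against 11.01 and 11.14 in B6, a difference of 0.15 ± 0.14 (limma adjusted p = 0.577). The next one differed by 0.27, again not called. A sixth probeset, below background in both strains, was called at -0.70. The probesets of *Rpn1* thus gave no single reading.

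The agreement between probesets was therefore counted over all genes that allowed it. In 3714 genes at least 2 probesets lay above background, and their differences correlated across genes at r = 0.468 (a description over genes, which are not independent replicates). Of 615 genes whose brightest probeset was called higher in PWD, the second probeset was called higher in 228 (37.1%) and lower in 31 (5.04%). Of 306 genes whose brightest probeset was called lower, the second was called lower in 100 (32.7%) and higher in 12 (3.92%). Where the brightest probeset was not called, 8.88% of second probesets were called higher and 7.23% lower. Among the 89 genes called at 8-fold or more by the brightest probeset, the second was called the same way in 54 (60.7%) and the opposite way in 2, and 25 second probesets lay within 1 log2 unit of 0. The sequence of PWD under the probes was not analysed here.

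**Figure D2:**
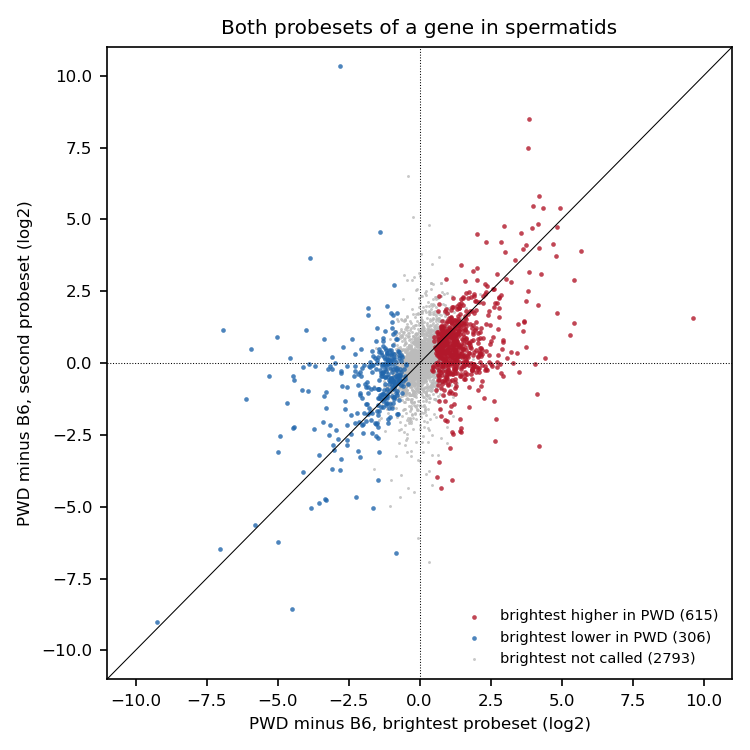
PWD minus B6 difference (log2) of the second brightest probeset of a gene (vertical axis) against that of the brightest (horizontal axis), for 3714 genes with at least 2 probesets above background. Points on the solid diagonal have equal differences, and points on the horizontal dotted line are genes whose second probeset did not differ.

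Genes with at least 2 probesets called in 1 direction and none in the other were counted next. The rule sets aside uncalled probesets, and *Rpn1* met it although its 2 brightest probesets were not called. Of 9010 genes with at least 2 probesets, 296 were of this kind and higher in PWD, and 191 lower. In these 2 counts the higher strain had to lie above background. Without that condition, 103 genes had probesets called in both directions. Among those higher, *Ets1* (chr9:32636241-32757820), which encodes a transcription factor, had all 4 of its probesets called. Its strongest probeset read 8.95 and 8.60 in PWD spermatids, against 2.60 and 2.69 in B6 spermatids. *Ms4a1*, which encodes the B cell antigen CD20, read 9.08 and 9.61 in PWD against 4.07 and 3.99 in B6 by its brighter probeset, a difference of 5.31 ± 0.39 (SE, limma adjusted p = 7.8e-05). *Socs2*, which encodes a suppressor of cytokine signalling, read 9.78 and 9.84 in PWD and 5.08 and 4.63 in B6. *Kidins220* (chr12:24974903-25063152), a gene for a scaffold protein of neurotrophin receptors, read 10.43 and 10.73 in PWD and 5.77 and 5.68 in B6, and 3 of its 4 probesets were called higher. *Plxnc1*, which encodes a semaphorin receptor, and *Ndrg1* had 4 called probesets each, with differences of 4.95 and 5.44 for the strongest.

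Among those lower, *Slc19a2* (chr1:164249046-164265385), which encodes a thiamine transporter needed for spermatogenesis in mice, read 2.95 and 3.05 in PWD spermatids, against 10.14 and 9.94 in B6 spermatids. Its difference was -7.04 ± 0.17 (SE, limma adjusted p = 1.8e-07), and the second probeset differed by -6.48. *Pus7l*, a gene of the pseudouridine synthase family, read 2.77 and 2.74 in PWD and 8.61 and 8.50 in B6, and its second probeset gave -5.65. The clone-named genes *4933406K04Rik* and *4930523O13Rik* had 3 called probesets each, with -6.63 and -6.53 for the strongest. The naming rule required that the arrays of the strains not overlap in these probesets, so that their separation is no further support. A further called probeset of *4930523O13Rik* was less even, with 6.9 and 4.7 in B6 spermatids and a difference of -2.26. That of *4933406K04Rik* read 2.91 and 4.78 in PWD spermatids.

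Few genes of spermiogenesis itself were called. The 254 measured genes of 12 lists, which cover chromatin condensation, transcription, RNA storage, the acrosome, head shaping, ADAM proteins, the tail sheath, the axoneme, energy metabolism, kinases, ion channels and the ubiquitin pathway, held 14 called higher (5.51%) and 12 called lower (4.72%) in PWD. Over all genes 9.56% were called higher and 7.54% lower. The median difference of the listed genes was -0.05, beside 0.08 for all genes above background. These genes are expressed at high levels, so that they were also set beside genes of like level. Of 196 listed genes with a spermatid mean above 10, 17 (8.67%) were called, and of all 3314 genes above that level 528 (15.9%) were called. Of the listed genes above that level 0 were called at 8-fold or more, and 20 of the 3314 were.

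Of 16 measured genes that condense spermatid chromatin 3 were called lower in PWD and 0 higher, with a list median of -0.22. Among all genes above background 9.5% were called lower and 14.8% higher. The list held 11 negative and 5 positive differences, the highest of them 1.16 without a call. *Tnp2*, which encodes transition protein 2, read 10.67 and 11.19 in PWD spermatids, against 12.15 and 12.13 in B6 spermatids, a difference of -1.21 ± 0.24 (SE, limma adjusted p = 0.0139). *Tnp1*, which encodes transition protein 1, read 12.54 and 12.91 in PWD against 13.67 and 13.56 in B6, a difference of -0.89 ± 0.20 (limma adjusted p = 0.0243). *Prm2*, which encodes protamine 2, read 11.71 and 12.07 in PWD against 12.68 and 12.74 in B6, a difference of -0.82 ± 0.17 (limma adjusted p = 0.0151). In each gene PWD replicate 1 was the lowest array. The naming rule required that the arrays of the strains not overlap, which held for 71.7% of all probesets. *Prm1* differed by -0.26 and *Prm3*, another protamine gene, by -0.92, neither of them called. The second probeset of *Tnp1* differed by 0.22 and was not called. All 3 calls were lost without PWD replicate 1, when the differences were -0.95 for *Tnp2*, -0.71 for *Tnp1* and -0.64 for *Prm2* (limma adjusted p of 0.074, 0.126 and 0.0769), and without either B6 array, when the adjusted p lay between 0.058 and 0.111.

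The 17 measured markers of elongating spermatids, which include these 3 genes, all had a negative difference, with a median of -0.63, and besides the 3 genes above 0 were called under limma (3 others had an unadjusted p under 0.05). *Smcp*, which encodes a protein of the mitochondrial capsule, differed by -0.59, *Odf1*, of the outer dense fibres, by -0.55, *Akap4*, of the fibrous sheath, by -0.35, and *Capza3*, an actin capping protein of the sperm head, by -0.85. Markers of round spermatids had a median of -0.35, with *Tssk6*, a serine kinase, called lower (-0.95, limma adjusted p = 0.0105) beside *Tnp1*. *Tssk6* was not called without B6 replicate 2 (adjusted p = 0.0757). In pachytene spermatocytes the same 17 elongating markers had a median strain difference of 0.32. The difference between the populations was called for *Tnp2* (-1.60 ± 0.34, limma adjusted p = 0.0468) and *Prm2* (-1.23 ± 0.24, adjusted p = 0.0304), and was not called for the other 15 markers. Its median was -0.73 in these 17 markers, -0.53 in markers of round spermatids, -0.61 in tail sheath genes and -0.45 in acrosome genes. Each of the 12 spermiogenesis lists had a negative median. The median was -0.10 over all probesets and -0.26 over those above background in spermatids. A negative shift was therefore not particular to elongating markers. After centring of the arrays on probesets above background, the median over all probesets became 0.05. In prepachytene cells *Tnp2*, *Prm2* and *Tnp1* were called higher in PWD (1.74, 1.72 and 1.14). The proportion of elongating to round cells in each sort is not given by the labels, and its part in these values was not tested.

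The promoters of the 3 genes called lower are shown because these genes were called lower together and are classic targets of spermatid transcription factors, among them CREM, which binds the cAMP response element. Each runs from 250 bases before to 50 bases after the start of the gene in RefSeq (GRCm38.p6, minus strand for all 3, positions chr1:73015850-73016149 for *Tnp1*, chr16:10788606-10788905 for *Tnp2* and chr16:10792056-10792355 for *Prm2*). Capitals mark matches, on either strand, to the full element TGACGTCA, to its variant TGATGTCA (TGACATCA on the other strand) and to TATAAA, which on the minus strand of the window reads TTTATA.
*Tnp1*: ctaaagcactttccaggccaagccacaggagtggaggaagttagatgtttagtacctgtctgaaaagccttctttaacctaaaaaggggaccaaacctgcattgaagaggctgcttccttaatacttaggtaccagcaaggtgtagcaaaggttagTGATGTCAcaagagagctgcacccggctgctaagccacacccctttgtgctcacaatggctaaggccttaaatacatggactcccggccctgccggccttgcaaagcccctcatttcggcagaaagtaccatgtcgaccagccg
*Tnp2*: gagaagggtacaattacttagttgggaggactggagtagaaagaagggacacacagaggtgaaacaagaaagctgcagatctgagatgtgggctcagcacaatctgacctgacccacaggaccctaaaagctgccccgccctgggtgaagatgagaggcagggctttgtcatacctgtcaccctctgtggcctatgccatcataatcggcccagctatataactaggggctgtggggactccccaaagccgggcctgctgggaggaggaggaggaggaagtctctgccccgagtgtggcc
*Prm2*: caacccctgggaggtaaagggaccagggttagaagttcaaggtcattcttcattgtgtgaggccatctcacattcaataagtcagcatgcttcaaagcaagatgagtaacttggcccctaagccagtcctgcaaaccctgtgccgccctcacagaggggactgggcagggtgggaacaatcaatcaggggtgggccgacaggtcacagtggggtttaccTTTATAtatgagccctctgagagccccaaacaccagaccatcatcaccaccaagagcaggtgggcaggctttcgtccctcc
The variant element occurred 1 time in the *Tnp1* window, and TATAAA occurred 1 time in the *Prm2* window. The full element had 0 matches in these 3 windows. Over 32851 promoters of the same length, 1.79% held the full element, 3.62% the variant and 13.6% TATAAA. These matches describe the reference sequence, and PWD sequence was not analysed here.

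The regulators of spermatid transcription had 1 call. Of 18 measured members 1 was called, *Mybl1*, a meiotic transcription factor gene, with 10.94 and 11.45 in PWD spermatids, against 8.74 and 8.68 in B6 spermatids (2.49 ± 0.30 SE, limma adjusted p = 0.00109). *Crem* differed by -0.05, *Tbpl1*, which encodes a testis relative of the TATA-binding protein, by 0.17, and *Rfx2*, a regulator of ciliary genes in spermatids, by 0.12. Among 20 genes of RNA storage and translation 3 were called higher and 1 lower (14.8% and 9.5% over all genes above background). *Tdrd1*, a piRNA pathway gene, read 8.46 and 8.48 in PWD and 6.10 and 6.58 in B6, and *Boll*, a germ cell RNA-binding protein gene, read 10.82 and 11.00 in PWD and 9.82 and 9.56 in B6. *Celf1* differed by 1.45. *Prkra*, which encodes an activator of the kinase PKR, read 5.34 and 4.56 in PWD against 8.39 and 8.14 in B6 (-3.32 ± 0.28). The abundant storage proteins *Ybx2* (0.07), *Pabpc1* (-0.01) and *Ddx4* (0.22) were not called. *Boll* was lost without PWD replicate 2 or B6 replicate 2 (limma adjusted p of 0.0813 and 0.102), and *Celf1* was lost when any 1 spermatid array was left out and was kept in 2 of the 12 fits without 1 array (adjusted p of up to 0.214).

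**Figure D3:**
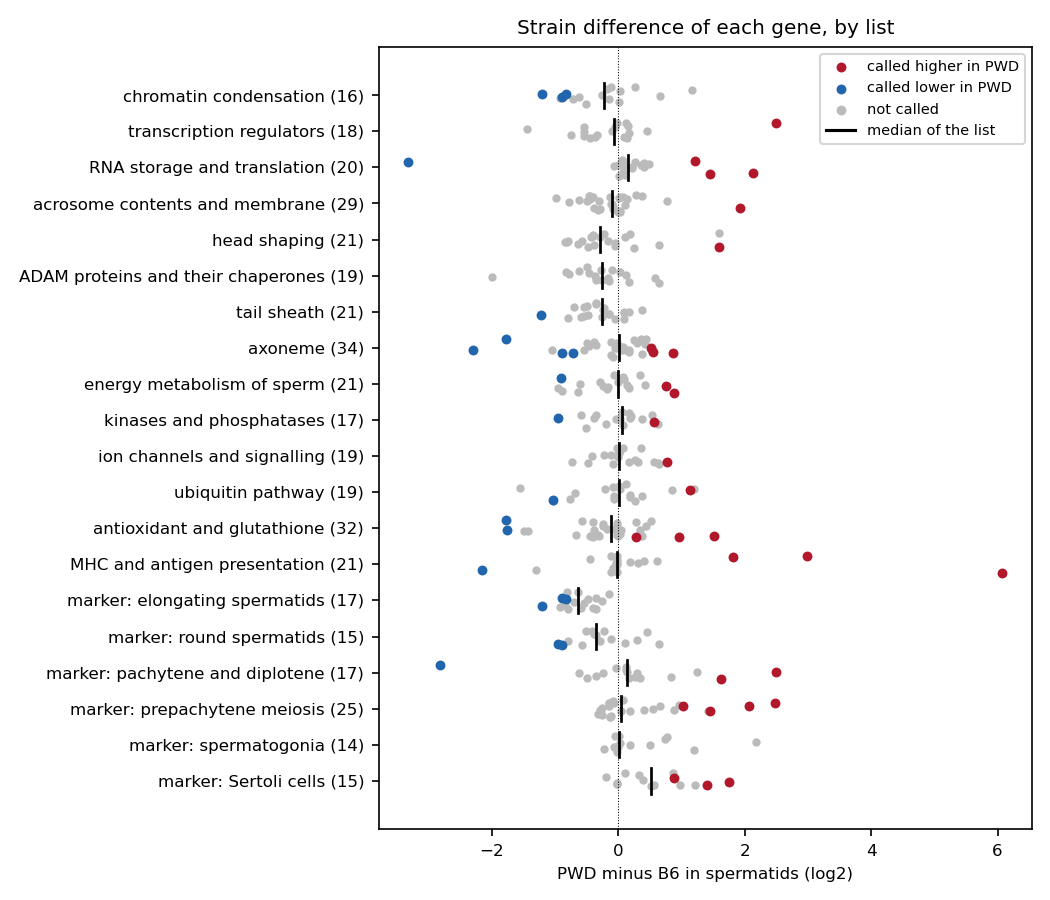
PWD minus B6 difference in spermatids (log2, horizontal axis) of each measured gene of 20 lists, with the number of genes in parentheses, red where called higher in PWD, blue where called lower and grey where not called. Black ticks are list medians, of which that of the elongating spermatid markers lies at -0.63 and that of the Sertoli cell markers at 0.53.

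Genes of the acrosome, the head and the gamete surface had 2 calls in all. Of 29 genes of acrosome contents and membrane 1 was called, *Izumo4*, with 7.30 and 7.95 in PWD spermatids, against 5.99 and 5.40 in B6 spermatids (1.93 ± 0.37 SE, limma adjusted p = 0.0115). The gene of the sperm-egg fusion protein, *Izumo1*, differed by -0.09, that of acrosin, *Acr*, by -0.49 and that of a zona pellucida-binding protein, *Zpbp*, by 0.07. Of 21 head-shaping genes 1 was called, *Gopc*, which acts in acrosome formation from the Golgi (1.59 ± 0.32). Of 19 genes of ADAM proteins and their chaperones 0 were called, with a median of -0.26 (all genes above background 0.08) and 1 member at an unadjusted p under 0.05. *Adam2* and *Adam3* of the sperm surface differed by -0.16 each, while *Adam26a* differed by -2.00 without a call. *Izumo4* and *Gopc* were both lost without PWD replicate 2 or B6 replicate 2, with limma adjusted p of 0.0682 to 0.0898.

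The flagellum showed single changed members in both directions. In the tail sheath 1 of 21 genes was called, *Akap3*, which encodes an anchoring protein of the fibrous sheath, with 14.08 and 14.56 in PWD spermatids and 15.59 and 15.51 in B6 spermatids (-1.23 ± 0.26 SE, limma adjusted p = 0.0177). Its second probeset differed by -0.48 without a call, and the first was lost without PWD replicate 1 or either B6 array (adjusted p of 0.0734 to 0.0923). Of 34 axoneme genes 3 were called higher and 4 lower, beside 14.8% and 9.5% over all genes above background. *Tekt5* (chr16:10357952-10395455), which encodes a tektin of the sperm flagellum, read 7.32 and 7.40 in PWD against 9.79 and 9.52 in B6, a difference of -2.30 ± 0.18. *Dnaic2*, which encodes an intermediate chain of outer arm dynein, read 9.11 and 9.40 in PWD against 11.12 and 10.95 in B6 (-1.78 ± 0.18). *Cfap43* and *Gas8* differed by -0.71 and -0.90, and *Rsph1*, of the radial spokes, and *Dnah8*, a dynein heavy chain gene, were higher by 0.52 and 0.55. The second probeset of *Gas8* differed by 0.31 and was not called. *Dnali1* was called in both directions, 0.87 by its brighter and -0.94 by its second probeset, and the call of the brighter was kept in 7 of the 12 fits without 1 array and lost without PWD replicate 2 or either B6 spermatid array among others (adjusted p of up to 0.151). *Gas8* and *Dnah8* were lost when any 1 of the 4 spermatid arrays was left out, with adjusted p up to 0.105 and 0.142. *Cfap43* was likewise lost and was kept in 4 of the 12 fits (adjusted p up to 0.202), and *Rsph1* was lost without PWD replicate 2 or B6 replicate 2 (adjusted p up to 0.133).

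Among 21 genes of energy metabolism 2 were called higher and 1 lower in PWD (14.8% and 9.5% over all genes above background). *Slc25a31*, the testis ADP/ATP carrier gene, read 12.56 and 12.79 in PWD and 11.97 and 11.62 in B6, and *Cox6b2*, a testis isoform gene of cytochrome oxidase, read 12.54 and 12.48 in PWD and 11.76 and 11.74 in B6. *Tpi1*, which encodes triosephosphate isomerase, read 12.90 and 13.13 in PWD and 13.88 and 13.97 in B6, and all 3 of its probesets were called lower. The germ cell glycolytic genes *Pgk2* (-0.18), *Ldhc* (-0.07) and *Gapdhs* (-0.63) were not called. *Slc25a31* was lost without PWD replicate 2 or B6 replicate 2, and *Cox6b2* when any 1 spermatid array was left out (limma adjusted p up to 0.105 and 0.0903).

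Of 17 kinase and phosphatase genes *Csnk2a2*, which encodes a catalytic subunit of casein kinase 2 and is needed for normal sperm heads in mice, was called higher (0.56 ± 0.13 SE, limma adjusted p = 0.0304) and *Tssk6* lower. Of 19 ion channel and signalling genes 1 was called, the transporter gene *Slco6d1* (0.77, adjusted p = 0.0459), and the CatSper channel genes *Catsper1* and *Catsper2* differed by 0.02 and -0.08. In the ubiquitin pathway *Spop*, a substrate adaptor gene of cullin ligases, was called higher (1.14) and *Ube2j1*, a conjugating enzyme gene of the endoplasmic reticulum, was called lower (-1.02, adjusted p = 0.00218) among 19 genes. By its brighter probeset *Ube2j1* read 11.72 and 12.05 in PWD spermatids and 12.89 and 12.93 in B6 spermatids. That probeset differed in the opposite direction without a call in pachytene (0.36), and the difference between the populations was called (-1.38 ± 0.20, adjusted p = 0.00856). The second probeset of *Ube2j1* differed by -0.18 in spermatids and was not called. Of the 12 fits without 1 array, *Csnk2a2* was kept in 7, *Slco6d1* in 4 and *Spop* in 10, with adjusted p up to 0.128, 0.234 and 0.0821. *Slco6d1* was lost when any 1 spermatid array was left out, *Csnk2a2* without PWD replicate 2 or either B6 array, and *Spop* without PWD replicate 2 or B6 replicate 2. Of 7 probesets of *Csnk2a2* the other 6 were not called, and the second brightest differed by -0.00.

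Among 32 antioxidant and glutathione genes 3 were called higher and 2 lower in PWD, beside 9.56% and 7.54% over all genes. *Cat*, the catalase gene, read 3.81 and 4.04 in PWD spermatids, against 5.64 and 5.77 in B6 spermatids, so that its PWD value was at background. *Gstm4*, a glutathione transferase gene, read 5.42 and 5.57 in PWD against 7.11 and 7.38 in B6 (-1.75 ± 0.23 SE, limma adjusted p = 0.0019). *Txn1*, the thioredoxin gene, differed by 1.52, *Gstz1* by 0.96 and *Gstt1*, at background in both strains, by 0.28. The second probeset of *Txn1* differed by 0.04 and was not called. *Txn1* was lost without PWD replicate 2 or B6 replicate 2 (adjusted p of 0.14 and 0.155) and *Gstz1* without B6 replicate 2 (0.0539). *Gstt1* was lost without PWD replicate 1 or B6 replicate 2 (adjusted p up to 0.12). The spermatid thioredoxin genes *Txndc2* (-0.58), *Txndc8* (-0.38) and *Txnrd3* (0.04) were not called.

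A single class I histocompatibility gene held the largest difference among the lists. *H2-Bl* (chr17:36080110-36084249), a class I gene of the major histocompatibility complex (MHC), read 9.80 and 10.59 in PWD spermatids, against 4.06 and 4.17 in B6 spermatids, a difference of 6.08 ± 0.27 (SE, limma adjusted p = 4.4e-06). *Tap1*, which encodes a subunit of the peptide transporter, read 5.54 and 5.58 in PWD and 2.59 and 2.57 in B6. *H2-K1*, a classical class I gene, read 8.73 and 9.20 in PWD and 7.27 and 7.02 in B6, with a second probeset called at 2.29. The remaining probesets of *H2-K1* were not called in spermatids (0.78 and -0.10). In prepachytene cells the called pair was called lower in PWD (-3.99 and -3.53). *Nlrc5*, which encodes a transactivator of class I genes, was called lower (-2.15) with both strains below background. The other 17 of 21 measured MHC genes were not called, and *B2m* differed by 0.62. The list had a median of -0.025, with 14 of its 21 differences negative and 7 of its genes above background over the 12 arrays. Class I genes share sequence, so that the values of single members are uncertain. Among 26 interferon and innate immunity genes *Mx1* was called higher (1.23), with both strains below background.

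On Chr 17, where the *t*-complex region carries genes that act on sperm, 2 of 12 measured genes were called lower and 1, *Dnah8*, higher. *Tiam2*, which encodes an exchange factor for Rac, read 5.70 and 5.88 in PWD spermatids against 6.99 and 6.97 in B6 spermatids (-1.20 ± 0.15 SE, limma adjusted p = 0.00159). *Fgd2*, which encodes an exchange factor for Cdc42, read 4.10 and 4.28 in PWD against 5.85 and 6.86 in B6 (-2.17 ± 0.29). The strain difference of both was larger in spermatids than in pachytene, by -1.32 (limma adjusted p = 0.0161) for *Tiam2* and -2.40 (adjusted p = 0.0185) for *Fgd2*. *Tcp1* and *Tcp11* differed by -0.02 and -0.36.

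The X chromosome, silenced in pachytene and still repressed for many genes in spermatids, had a lower called share than any autosome. Of 266 X-linked genes above background 11 were called higher (4.14%) and 22 lower (8.27%), with a median of -0.07. Of 9647 autosomal genes 1455 were called higher (15.1%) and 914 lower (9.47%), with a median of 0.09. The called share was 12.4% on Chr X and lay between 16.5% (Chr 14) and 30.4% (Chr 13) on the autosomes. Background was judged over all 12 arrays, so that genes with signal mainly in the other populations were included. Chr X and the autosomes were not compared at like level in spermatids. The X-linked genes named here were chosen after their values were seen. *Zfp185*, a gene for a LIM domain protein, read 3.26 and 3.75 in PWD spermatids and 8.49 and 8.62 in B6 spermatids. *Cenpi*, a centromere protein gene, read 5.15 and 5.75 in PWD and 9.03 and 8.68 in B6. *Esx1*, a homeobox gene, read 7.10 and 7.12 in PWD and 8.49 and 9.12 in B6, and its call was lost without either PWD array or B6 replicate 2 (limma adjusted p up to 0.0961). Higher in PWD were *Usp11*, a deubiquitinase gene (3.35), *Nxf3*, an RNA export factor gene (3.16), *Rps4x*, a ribosomal protein gene (3.06), and *Hmgb3* (2.92), in each of which the B6 mean lay below background.

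The 6 measured candidate genes of the *Hstx1* and *Hstx2* hybrid sterility region on Chr X held 0 calls in spermatids under limma, with *Fmr1* at an unadjusted p under 0.05. *Fmr1*, which encodes an RNA-binding protein, read 7.21 and 6.64 in PWD against 6.53 and 5.16 in B6 (1.08 ± 0.46 SE, limma adjusted p = 0.209), and it was called without B6 replicate 1 (1.77, adjusted p = 0.0318). *Fmr1nb* differed by 0.03 ± 0.72, *Ctag2* by -0.56 ± 0.46 and *4933436I01Rik* by -0.58 ± 0.62. *Aff2* and *Slitrk2* were below background in both strains. Of 16 autosomal candidate genes of hybrid sterility loci, *Hormad1*, a meiotic axis gene, read 10.43 and 10.48 in PWD and 7.99 and 7.96 in B6 (2.48 ± 0.16, adjusted p = 3.2e-05), and *Cks2* was called higher (1.00, kept in 3 of the 12 fits without 1 array and lost without PWD replicate 2 or either B6 array among others, adjusted p of up to 0.169). *Msh3*, a mismatch repair gene, was called lower by its brightest probeset (-0.78) and higher by another (1.74), and the call of the brightest was lost when any 1 spermatid array was left out (adjusted p of up to 0.145). The 16 autosomal candidates thus held 2 called higher and 1 lower, beside 14.8% and 9.5% over all genes above background. Of 4 Y-linked genes above background 0 were called.

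Markers of other cell types of the testis were counted in the same way. Of 25 markers of prepachytene meiosis 4 were called higher and 0 lower in PWD, with a median of 0.05, beside 14.8% called higher, 9.5% called lower and a median of 0.08 over all genes above background. The list averaged 8.40 and 8.59 on the PWD arrays and 8.09 and 8.08 on the B6 arrays. In pachytene spermatocytes 9 of these 25 markers were called higher in PWD and 0 lower, with a median of 0.57. The shares over all probesets there were 8.64% higher and 4.19% lower. *Sycp3*, a gene of the synaptonemal complex, read 12.80 and 13.24 in PWD and 11.63 and 11.51 in B6, and *Sycp2* and *Meiob* differed by 1.03 and 2.07. The defining markers of early meiosis *Stra8*, *Dmc1* and *Prdm9* were below background in both strains, as were *Kit*, *Zbtb16* and *Gfra1* of spermatogonia. Of 17 pachytene and diplotene markers *Mybl1* and *Mlh3* were called higher and *Aurkc*, a kinase gene of meiotic divisions, lower, with 7.98 and 8.39 in PWD against 10.88 and 11.12 in B6. *Mlh3* was kept in 3 of the 12 fits without 1 array, and was lost without either PWD array or without B6 replicate 1 (limma adjusted p of up to 0.156). Of 14 spermatogonial markers 0 were called under limma, with a median of 0.02 and 1 at an unadjusted p under 0.05.

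Sertoli cell markers had a median of 0.53, the highest of the lists, with 3 of 15 called higher and 0 lower. Over all genes 9.56% were called higher and 7.54% lower, and over genes above background 14.8% and 9.5%. The list averaged 5.69 and 6.08 in PWD spermatids, against 5.22 and 5.37 in B6 spermatids. *Ctsl*, which encodes a cathepsin of Sertoli cells, read 9.56 and 10.05 in PWD and 7.80 and 8.29 in B6 (1.76 ± 0.21 SE, limma adjusted p = 0.00104). *Rhox5* and *Cldn11* differed by 1.41 and 0.88 and were lost without PWD replicate 2 or either B6 array, with adjusted p of up to 0.0989 and 0.204, and *Cldn11* was kept in 5 of the 12 fits without 1 array. The defining markers *Amh*, *Fshr*, *Gata4* and *Wt1* were below background in both strains. Of 7 Leydig cell markers *Cyp17a1*, an androgen synthesis gene, read 5.58 and 6.16 in PWD and 2.56 and 2.56 in B6 and was called higher, while *Star*, *Cyp11a1* and *Hsd3b1* were below background in both strains. The Leydig list had a median of -0.04. *Cyp1b1* was called in both directions, 2.94 by its brightest probeset and -4.67 by its second (limma adjusted p = 3.8e-07), so that its direction was not settled. *Cyp17a1* was lost without PWD replicate 2 or either B6 array, with adjusted p of up to 0.0722. Of 15 markers of peritubular and blood cells *Vwf* (2.57) and *Adgre1* (1.54) were called higher, with a list median of -0.03. *Adgre1* was lost without PWD replicate 1 or B6 replicate 2 (limma adjusted p of up to 0.224) and kept in 2 of the 12 fits without 1 array, and *Ptprc*, *Cd68* and *Pecam1* were below background. The part of other cells in the differences of spermatids was not tested.

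The strain difference of spermatids was in part shared with pachytene spermatocytes. Of the 2865 probesets called higher in PWD spermatids, 1648 (57.5%) were also called higher in pachytene, which is 42.4% of the 3890 called higher there (8.64% of all probesets), and 11 were called lower. Of the 2487 called lower, 964 (38.8%) were also called lower in pachytene, which is 51.1% of the 1886 called there (4.19% of all), and 26 were called higher. With prepachytene cells, where 11.9% of all probesets were called higher and 6.72% lower, 892 (31.1%) and 535 (21.5%) were shared. In all 3 populations 699 probesets (24.4%) were called higher and 374 (15%) lower. Arrays of the populations may come from the same animals, which the labels do not tell.

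The test of the difference itself, the strain difference in spermatids minus that in pachytene, was called for 1699 probesets (3.77%), 691 positive (1.53%) and 1008 negative (2.24%). By the brightest probeset of each gene 343 genes were positive (1.89%) and 504 negative (2.77%). This balance depended on the scaling, since the positive share of 40.7% became 52% after quantile normalization was applied again and 57.3% after centring of the arrays on probesets above background, which gave a median over all probesets of 0.05 instead of -0.10. It also depended on single arrays, with 996 positive and 725 negative without PWD spermatid replicate 1 and 683 positive and 1902 negative without B6 spermatid replicate 1. Against prepachytene cells 6854 probesets (15.2%) were called, 2847 positive (6.32%) and 4007 negative (8.9%), a positive share of 41.5% that became 52.4% and 53% under the same settings, when the median over all probesets was 0.00 and 0.15 instead of -0.03. Among probesets of 1 gene, 274 were called higher and 472 lower in spermatids with a strain difference that exceeded, in the same direction, those of both other populations, and 180 and 352 of them were not called in either.

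Among the genes with the largest positive difference from pachytene, *Lbh*, which encodes a transcription cofactor, read 6.89 and 6.74 in PWD spermatids against 2.25 and 2.25 in B6 spermatids, while PWD and B6 averaged 2.28 and 2.23 in pachytene. The strain difference in spermatids exceeded that in pachytene by 4.52 ± 0.09 (SE, limma adjusted p = 3.5e-07), but its other 2 probesets were at background throughout. *Ms4a1* exceeded its pachytene difference by 4.82 ± 0.73 (adjusted p = 0.0112) by its dimmer probeset, which was at background in pachytene. By its brighter probeset the excess was 2.92 ± 0.56 (adjusted p = 0.0301), and that probeset read 6.12 in PWD and 3.73 in B6 pachytene cells and was called higher there (2.39). *Csmd1*, which encodes a large membrane protein with complement control domains, read 6.80 and 8.02 in PWD against 2.18 and 2.20 in B6, with an excess of 4.77 ± 0.52, but its other 3 probesets were at background and not called. *Man2a2* is of another kind, since it read 12.83 in PWD and 9.85 in B6 pachytene cells and was at background in B6 spermatids. *Tekt5* was lower in PWD in both populations, by a smaller margin in spermatids (-2.30) than in pachytene (-7.28), where it read 2.82 in PWD and 10.10 in B6.

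**Figure D4:**
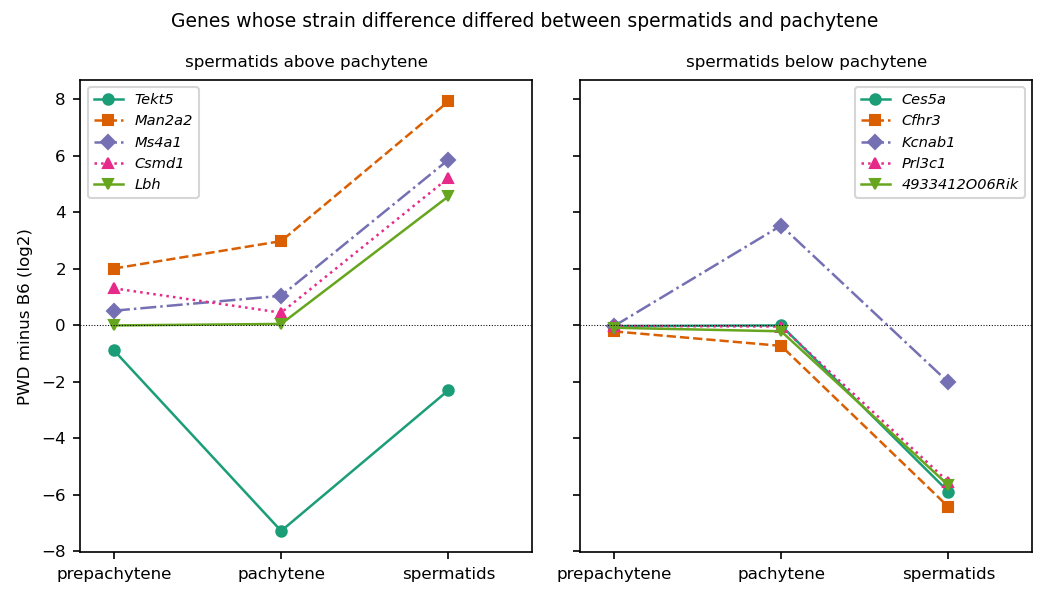
PWD minus B6 difference (log2, vertical axis) in prepachytene, pachytene and spermatids (horizontal axis), for the 5 genes with the largest positive and the 5 with the largest negative difference between spermatids and pachytene. *Man2a2* reaches 7.93 in spermatids, and *Cfhr3* falls to -6.42 there, against -0.72 in pachytene.

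At the other end stood genes with signal in B6 spermatids and a background value in PWD spermatids. *Ces5a* (chr8:93499063-93535879), which encodes a carboxylesterase, read 1.56 and 1.56 in PWD spermatids and 7.47 and 7.42 in B6 spermatids, with 1.58 in pachytene cells of either strain. The difference between the populations was -5.88 ± 0.05 (SE, limma adjusted p = 1.3e-09), and all 3 probesets of the gene were called lower in spermatids. *Cfhr3*, of the complement factor H family, read 2.96 and 2.95 in PWD against 9.43 and 9.33 in B6. *Prl3c1*, of the prolactin family, read 2.29 and 2.30 in PWD against 8.04 and 7.64 in B6, and *4933412O06Rik* read 2.46 and 2.45 in PWD against 8.08 and 8.14 in B6. *Kcnab1*, a potassium channel subunit gene, was lower in PWD spermatids (-2.01) and higher in PWD pachytene cells (3.54), but its brighter probeset was higher in PWD spermatids by 5.25, so that its direction was not settled.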

How the data were processed

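RNA of sorted testicular cells was hybridised to Affymetrix mouse expression arrays. The authors deposited log2 expression values. The submitters' processing notes give them as GCRMA values and the study's methods name RMA, and the version is not given in the sources used here. GCRMA corrects background by probe sequence, normalizes quantiles and summarizes probes. Bases that differ in PWD under a probe, and unequal RNA content between samples, can both move such values.

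After 64 control probesets had been removed, limma 3.58.1 (R 4.3.3) was run on 45037 probesets. It fitted 6 group means to 12 arrays (2 per group) and let the prior variance depend on expression level. Each comparison was adjusted by Benjamini-Hochberg over all probesets, with a threshold of 0.05. Summaries and plots were made in Python 3.11.15 with numpy 2.4.6, pandas 2.3.3 and matplotlib 3.10.9. Gene names came from the platform annotation, updated through RefSeq (GRCm38.p6). A single name was found for 34945 probesets, several for 932 and none for 9160. Where genes were counted, the brightest probeset over the 12 arrays stood for its gene. The fit was tested on simulated data.

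The members and gene lists were chosen with earlier results of these data known. Among called probesets of 1 gene, with no overlap between strains and the higher strain above background, the following were named: the 12 highest and 12 lowest differences, 6 genes each way with at least 2 called probesets that agree, up to 4 members of each list, and 5 genes each way by the difference from pachytene. Uncalled list members were named as examples, and all *Hstx1* and *Hstx2* candidates were named. Called genes below background in both strains (*Nlrc5*, *Mx1*, *Gstt1*), further called axoneme genes (*Cfap43*, *Rsph1*) and the X-linked examples were named outside this rule, after their values were seen. Alternatives were repeated normalization, centring, filters, variance priors, blocks, array weights, stricter thresholds, other probeset choices and leaving out each array. The number of arrays limits the precision.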

Additional observations from a re-analysis of the deposited data

Results flagged for a closer look

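The results named here stood out because the strain difference of spermatids differed from that of pachytene spermatocytes by the limma test of the difference itself. They were chosen as the 5 largest each way, so that their sizes are a description. The excess over pachytene was 4.98 for *Tekt5*, 4.95 for *Man2a2*, 4.82 for *Ms4a1*, 4.77 for *Csmd1* and 4.52 for *Lbh*. It was -5.88 for *Ces5a*, -5.70 for *Cfhr3*, -5.55 for *Kcnab1*, -5.50 for *Prl3c1* and -5.45 for *4933412O06Rik*. Groups of 2 arrays were too small to look for an outlying array within a group.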

How the results depend on the processing

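The main counts were 5352 probesets and 3112 genes for PWD against B6 in spermatids, 1699 probesets for the difference from pachytene and 6854 for that from prepachytene. At an adjusted p under 0.01 they were 3215, 1916, 718 and 3334. When the fit held just the compared groups, they were 3252 probesets, of which 2654 were among the 5352, 1806 genes, and 8103 probesets for the difference from pachytene (1142 positive and 6961 negative). That difference gave 8614 probesets with array weights and 839 among probesets above background over the 12 arrays. Leaving out 1 array gave 4154 to 5708 probesets and 2293 to 3312 genes in spermatids, 1259 to 2585 for the difference from pachytene and 5073 to 8332 for that from prepachytene. Without B6 spermatid replicate 2 the spermatid split was 1831 higher and 2323 lower, and without PWD spermatid replicate 1 it was 3114 higher and 1771 lower. The cause of these shifts was not tested. Samples share only a replicate number, whose deviations correlated at 0.0805 in spermatids, and with the replicate block the counts were 4913, 2882, 1379 and 6122, with 7 of 101 calls of named probesets lost. Of 53 called probesets named for their size, for 2 agreeing probesets or for the difference from pachytene, 52 were called in spermatids under each of the 22 settings at the same threshold that could be computed, and *Kcnab1* was lost when the fit held just the compared groups (limma adjusted p = 0.117). Of 48 named from the lists, 16 were called throughout. Across these settings 0 of the named calls changed direction.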
